A study of Mus musculus with 29 samples.

Results

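The endothelin system was followed through 6 genes of the mouse heart, Edn1, Edn3, Ednra, Ednrb, Ece1 and Ece2, taken by their symbols out of 29955 rows of an expression table. Endothelins are short peptides that constrict vessels. They are cut from a precursor by furin, and from its intermediate by the endothelin-converting enzymes ECE1 and ECE2. Endothelin-1 (Edn1) comes mainly from the endothelium, while endothelin-3 (Edn3) is best known from the neural crest. The receptor ETA (Ednra) sits on smooth muscle and cardiomyocytes, where it couples to Gq and drives contraction and growth. The receptor ETB (Ednrb) sits chiefly on endothelial cells, where it releases nitric oxide and takes up circulating endothelin-1.

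RNA with poly(A) tails was sequenced from the hearts of C57BL6 mice (male C57BL/6J in the study's methods) that were 3 months old at the start. For heart failure (HF), the drinking water held 0.3 mg/ml of L-NAME, which blocks the making of nitric oxide, and NaCl at 1% during 5 weeks. Angiotensin II at 0.7 mg/kg/day was added from a pump placed 1 week after the water, and the agents were then withdrawn for recovery. The values are FPKM, fragment counts scaled to transcript length and library depth by the authors' tool, whose setting for scaling between libraries is not given in the sources used here. The groups used were HF week 3 (2 libraries), HF week 5 (3), Recovery week 7 (2), week 9 (2), week 11 (3), week 13 (2) and week 19 (5), and Control week 19 (5), all counted in weeks of the study. The series also holds 4 samples labelled as controls for week 5, whose columns were not used because their number in the table differs. Control week 19 is labelled as the age match of Recovery week 19 and is 14 weeks further on than HF week 5. With it as the reference, age and heart failure cannot be told apart in HF week 5, and a parallel limit holds for the other unmatched weeks. Nothing in the labels says whether the libraries of a group came from separate animals, so the p-values measure the spread between libraries.

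Some libraries stood apart. HF week 3 library 1 had 12816 genes above 0, against 16339 to 18091 in the others, and no fragment steps in its low values, whereas the remaining 23 libraries had relative depths of 0.727 to 1.39. The hearts are labelled as ventricle, yet Myl7, an atrial myosin light chain, was at 18388, 152 and 6.16 FPKM in the HF week 5 libraries and at 1805 and 5773 FPKM in HF week 3, against 0.166 to 1.12 FPKM in Control week 19. The table also splits by week: Myh6, the main cardiac myosin heavy chain, is listed at 0 in all libraries of weeks 5 and 19 and above 0 in the 11 libraries of weeks 3 and 7 to 13, while the other 9 cardiomyocyte markers are above 0 in 24 of 24 libraries. HF week 5, Recovery week 19 and Control week 19 lie on the same side of that split. Comparisons of weeks 3 and 7 to 13 with these groups lie across it, and the split and the week cannot be told apart there.

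The promoter windows of 4 genes are shown because 2 of them, Ednrb and Ece1, moved together in HF week 5 while Ednra and Edn1 did not pass the test. Each window runs from 250 bases before to 50 bases after the gene start in RefSeq GRCm38.p6, a later build than the one the reads were aligned to. All 6 genes had a window there, and Ece1 has 4, of which the one upstream of the others is printed. Capitals mark matches on either strand to 6 motifs: GATAA for factors of the Gata family, TGANTCA for AP-1, TATAAA for the TATA box, GGGCGG for Sp1, ACGTG for hypoxia-inducible factors and CACCC for Krüppel-like factors.
Ednrb, chr14:103843652-103843951, minus strand: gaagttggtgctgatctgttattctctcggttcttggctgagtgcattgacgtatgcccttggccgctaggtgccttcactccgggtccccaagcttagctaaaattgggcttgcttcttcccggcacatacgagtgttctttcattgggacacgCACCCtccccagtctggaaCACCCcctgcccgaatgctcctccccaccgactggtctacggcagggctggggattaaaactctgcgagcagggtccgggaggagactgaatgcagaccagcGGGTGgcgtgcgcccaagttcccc
Ednra, chr8:77724403-77724702, minus strand: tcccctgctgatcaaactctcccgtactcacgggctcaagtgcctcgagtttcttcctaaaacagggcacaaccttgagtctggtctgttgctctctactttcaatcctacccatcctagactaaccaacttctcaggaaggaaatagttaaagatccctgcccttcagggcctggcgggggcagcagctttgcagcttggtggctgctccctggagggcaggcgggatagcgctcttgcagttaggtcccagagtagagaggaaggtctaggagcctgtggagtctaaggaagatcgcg
Ece1, chr4:137861987-137862286, plus strand: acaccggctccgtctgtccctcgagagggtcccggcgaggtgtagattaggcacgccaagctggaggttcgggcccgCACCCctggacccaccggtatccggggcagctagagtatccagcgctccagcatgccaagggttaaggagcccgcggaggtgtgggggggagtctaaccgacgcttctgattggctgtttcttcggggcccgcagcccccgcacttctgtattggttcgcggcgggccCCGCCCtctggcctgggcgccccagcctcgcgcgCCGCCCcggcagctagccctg
Edn1, chr13:42301226-42301525, plus strand: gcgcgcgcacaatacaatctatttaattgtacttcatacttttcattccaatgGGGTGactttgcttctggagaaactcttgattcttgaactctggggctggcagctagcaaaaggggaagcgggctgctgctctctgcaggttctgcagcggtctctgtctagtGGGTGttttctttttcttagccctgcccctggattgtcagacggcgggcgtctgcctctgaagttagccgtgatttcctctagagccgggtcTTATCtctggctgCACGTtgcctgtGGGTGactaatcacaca

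Counting positions from the gene start, the Ednrb window held CACCC at -95, -76 and 26 and none of the other 5 motifs. The Ece1 window held GGGCGG at -5 and 29 and CACCC at -173. The Edn1 window held GATAA at 8, ACGTG at 21 and CACCC at -197, -84 and 33, and the Ednra window held none of the 6. Over 32851 windows of the same length, CACCC was found in 57.5%, GGGCGG in 35.7%, GATAA in 25.4%, ACGTG in 19.6%, TATAAA in 13.6% and TGANTCA in 7.81%. The Ednrb and Ece1 windows share only CACCC, the most frequent of the 6. These matches describe the letters of each window and were not tested for binding. Whether transcription in these hearts began at the RefSeq start was not examined, so a position after it need not lie within the transcript. A site whose letters depart from those of a motif is not marked.

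Ednrb had the largest difference on the log2 scale between HF week 5 and Control week 19 of the 6 members. Its level in Control week 19 was 5.51, 4.73, 5.28, 4.56 and 5.09 FPKM (5.04 ± 0.390, SD, n = 5). In HF week 5 it was 15.0, 8.00 and 14.3 FPKM (12.4 ± 3.86, SD, n = 3), and in Recovery week 19 it was 6.70, 6.53, 5.11, 6.31 and 4.45 FPKM (5.82 ± 0.986, SD, n = 5). Every HF week 5 library was above every library of both week 19 groups, and the recovery and control values overlapped. Against Control week 19, Ednrb in HF week 5 was higher by 1.18 on the log2(FPKM + 0.5) scale (SE 0.289, 95% interval 0.57 to 1.78, a 2.26-fold difference; limma with Benjamini-Hochberg adjustment, adjusted p = 0.00661). It was lower in Recovery week 19 than in HF week 5 by a log2 difference of -0.999 (SE 0.289, adjusted p = 0.0172, limma). Without HF week 5 library 1 the first difference was 1.02 (adjusted p = 0.0547) and the second -0.84 (adjusted p = 0.104), so the calls rest on that library, and without library 3 the second was -0.88 (adjusted p = 0.0710). Leaving out both HF week 3 libraries, which share in the estimate of the spread, a fit chosen after the values were seen, gave adjusted p-values of 0.000115 and 0.000408.

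Of the 6 members, 2 passed the test in HF week 5 against Control week 19, Ednrb and Ece1, both higher. Over all 12759 genes tested 24.0% passed in either direction, and 11.6% of the genes tested passed as higher in HF week 5. The groups did not overlap for the same 2 members, against 29.5% of all genes. In Recovery week 19 against HF week 5 only Ednrb of the 6 passed, and 24.2% of all genes did. The groups did not overlap for Ednrb and Ednra there, against 26.7% of all genes. The HF week 5 libraries are common to both comparisons.

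**Figure D1:**
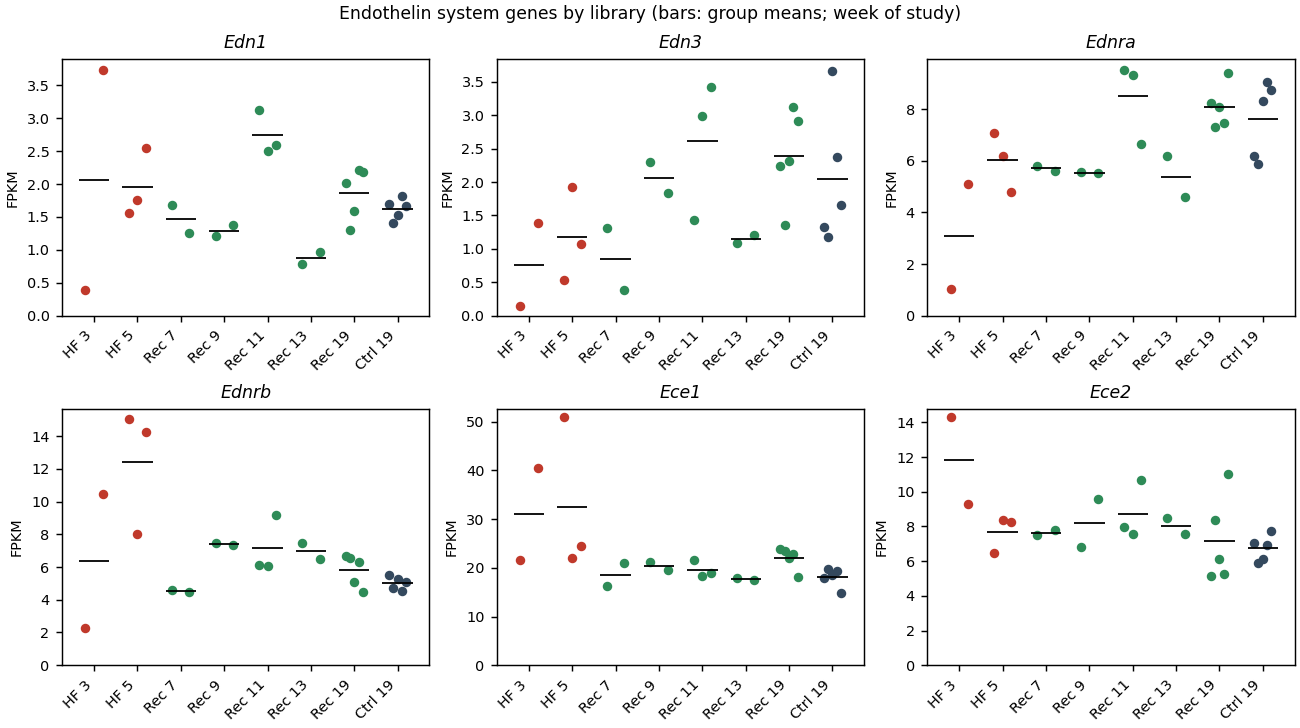
FPKM of each of the 6 genes (vertical axes) in every library (points) of the 8 groups by week of the study, with a bar at the group mean. Ednrb in HF week 5 (8.00 to 15.0 FPKM) lies above all libraries of Control week 19 and Recovery week 19, and the HF week 3 libraries lie far apart for most genes.

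Ednra did not rise with Ednrb. It was at 6.18, 5.89, 8.30, 9.04 and 8.74 FPKM in Control week 19 and at 7.08, 6.19 and 4.78 FPKM in HF week 5, ranges that overlap. In Recovery week 19 it was at 8.25, 7.30, 8.07, 7.47 and 9.41 FPKM, all above the HF week 5 libraries. The difference of HF week 5 from control was -0.31 on the log2 scale (95% interval -0.87 to 0.24, limma adjusted p = 0.422). The difference of Recovery week 19 from HF week 5 was 0.41 (95% interval -0.15 to 0.97, adjusted p = 0.281). Without both HF week 3 libraries the adjusted p of the latter was 0.0482. Neither interval leaves out a difference of 0.

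The balance of the receptors within each library is the log2 ratio of Ednra to Ednrb, each with 0.5 FPKM added. Its mean was 0.54 ± 0.313 (SD, n = 5) in Control week 19, -0.96 ± 0.573 (SD, n = 3) in HF week 5 and 0.45 ± 0.352 (SD, n = 5) in Recovery week 19. The ratio was lower in HF week 5 than in control by a log2 difference of -1.49 (exact two-sided permutation test, p = 0.0179, the smallest that the 56 arrangements allow, and 0.0268 adjusted over the 3 ratio comparisons). From HF week 5 to Recovery week 19 it rose by 1.41 (exact permutation p = 0.0179, adjusted 0.0268). With any 1 of the HF week 5 libraries left out, the exact permutation p of both was 0.0476, the smallest then possible, and 0.0714 after adjustment, so neither passed. Recovery week 19 differed from control by -0.08 (exact permutation p = 0.706), less than the spread between libraries. Ednrb exceeded Ednra in 10 of 24 libraries: in each library of HF weeks 3 and 5 and of Recovery weeks 9 and 13, and in 1 of 3 of Recovery week 11. It did so in no library of Recovery week 7, Recovery week 19 or Control week 19. HF week 3 library 1 did not stand apart in this ratio.

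**Figure D2:**
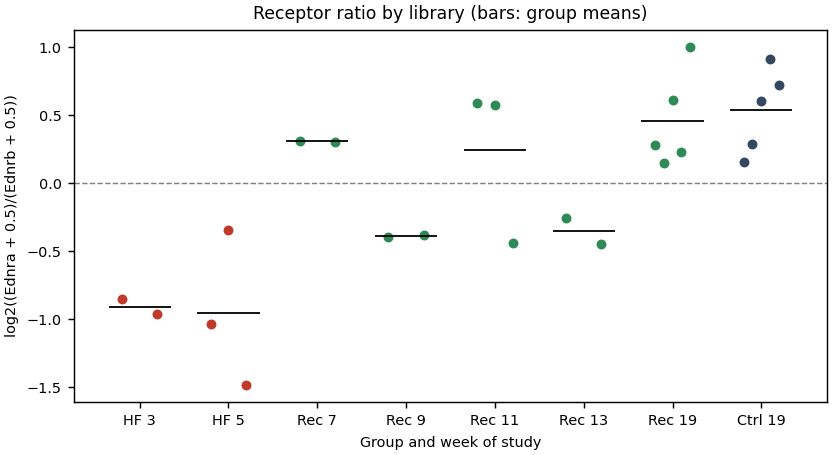
Log2 ratio of Ednra to Ednrb, each FPKM + 0.5 (vertical axis), in each library (points) by group and week, with bars at the group means and a dashed line where both receptors are equal. The 3 HF week 5 libraries and the 2 HF week 3 libraries lie below 0, and all libraries of Control week 19 and Recovery week 19 lie above it.

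Ece1, the converting enzyme of the endothelium and other cells, was the most abundant member in 24 of 24 libraries. It was at 17.9, 19.8, 18.6, 19.4 and 14.7 FPKM in Control week 19 (18.1 ± 2.00, SD, n = 5) and at 50.9, 22.1 and 24.5 FPKM in HF week 5 (32.5 ± 15.9, SD, n = 3). Recovery week 19 held 23.9, 23.4, 22.0, 22.8 and 18.1 FPKM (22.0 ± 2.32, SD, n = 5). All HF week 5 libraries were above control, but HF week 5 libraries 2 and 3 were within or just above the range of Recovery week 19. Against control, Ece1 in HF week 5 was higher by 0.73 on the log2 scale (SE 0.214, 95% interval 0.29 to 1.18, limma adjusted p = 0.0182). Without HF week 5 library 1 the difference was 0.36 (adjusted p = 0.210), and with only the groups compared in the fit the adjusted p of the 0.73 was 0.0561. Ece1 in Recovery week 19 differed from HF week 5 by -0.45 (SE 0.214, adjusted p = 0.129). Without HF week 5 library 2 that difference was -0.68 (adjusted p = 0.0393), and without library 1 it was -0.08.

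Ece2, the converting enzyme best known from neural tissue, showed no difference past the test at weeks 5 and 19. Its values were 7.04, 5.88, 6.11, 6.94 and 7.75 FPKM in Control week 19, 6.48, 8.35 and 8.28 FPKM in HF week 5, and 5.14, 8.38, 6.11, 5.26 and 11.0 FPKM in Recovery week 19. The spread within Recovery week 19 was wider than any difference between these groups. HF week 5 differed from control by 0.18 on the log2 scale (95% interval -0.25 to 0.61, limma adjusted p = 0.567), and Recovery week 19 differed from HF week 5 by -0.14 (95% interval -0.57 to 0.29, adjusted p = 0.647). In RefSeq, Ece2 overlaps a readthrough transcript, Eef1akmt4-ece2, and Ednrb overlaps Gm35197. Ednra overlaps 4933431K23Rik, LOC105243223 and LOC108167319, and Ece1 overlaps Gm13012 and Gm52683. None of these has a row in the table, and the authors' counting is not stated to use strand, so reads of such pairs cannot be told apart.

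The ligands were the least abundant members, with either Edn1 or Edn3 lowest in 24 of 24 libraries, and Edn1 above Edn3 in 10 of 24. Edn1 was at 1.69, 1.41, 1.53, 1.82 and 1.66 FPKM in Control week 19, at 1.56, 1.76 and 2.55 FPKM in HF week 5 and at 2.01, 1.304, 1.59, 2.21 and 2.18 FPKM in Recovery week 19. The groups overlapped. HF week 5 differed from control by 0.19 on the log2 scale (95% interval -0.44 to 0.83, limma adjusted p = 0.681), and Recovery week 19 differed from HF week 5 by -0.05 (95% interval -0.69 to 0.58). At these levels the added 0.5 FPKM makes the log2 differences smaller than those of the FPKM themselves.

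Edn3 was at 1.33, 1.17, 3.66, 2.37 and 1.66 FPKM in Control week 19, at 0.526, 1.92 and 1.07 FPKM in HF week 5 and at 2.23, 1.36, 2.32, 3.12 and 2.91 FPKM in Recovery week 19. HF week 5 held the lowest libraries, and each group overlapped the others. The difference of HF week 5 from control was -0.61 on the log2 scale (95% interval -1.38 to 0.17, limma adjusted p = 0.252). That of Recovery week 19 from HF week 5 was 0.84 (95% interval 0.06 to 1.62, adjusted p = 0.109, and 0.0398 after quantile normalization). Edn2, the third ligand, was above 0 in 4 of 24 libraries with a highest value of 0.102 FPKM and did not enter the test.

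Recovery week 19 and Control week 19, the age-matched groups, did not differ past the test in any member. None of the 6 was called by limma, where 0.0235% of all genes were, and none had an unadjusted p under 0.05, where 2.88% of all genes did. The log2 differences ranged from 0.03 for Ece2 to 0.28 for Ece1, all above 0. The interval of Ednrb was -0.34 to 0.70 and that of Ece1 -0.11 to 0.67.

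**Figure D3:**
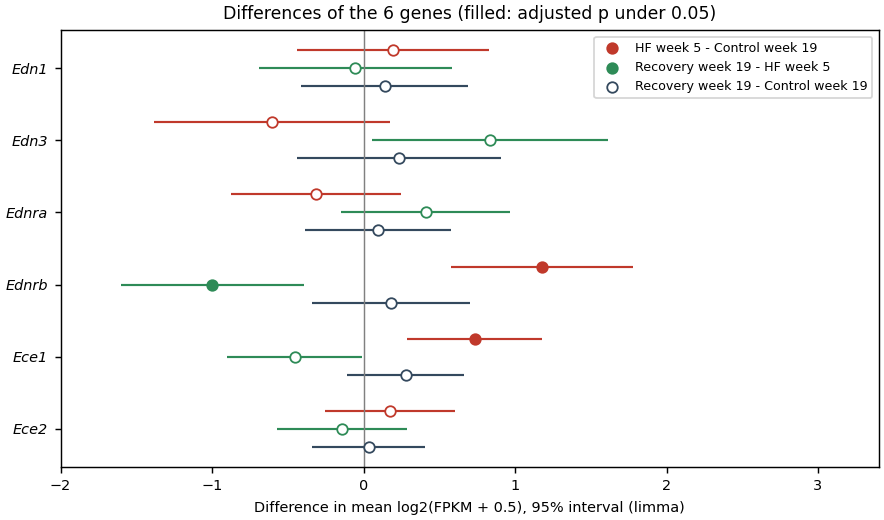
Differences in mean log2(FPKM + 0.5) with 95% intervals from limma (horizontal axis) for the 6 genes in 3 comparisons, filled where the adjusted p is under 0.05. The filled points are Ednrb and Ece1 in HF week 5 against Control week 19 (1.18 and 0.73) and Ednrb in Recovery week 19 against HF week 5 (-0.999).

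In HF week 3 the results turned on 1 library. Library 1 and library 2 were at 0.390 and 3.73 FPKM for Edn1, at 0.140 and 1.38 FPKM for Edn3, at 1.04 and 5.12 FPKM for Ednra and at 2.29 and 10.5 FPKM for Ednrb. They were at 21.7 and 40.5 FPKM for Ece1 and at 14.3 and 9.29 FPKM for Ece2. Library 1 was the lower of the pair for 5 of the 6 members. Some marker lists of other cells were higher in both libraries than in control, with summed levels of 79.3 and 255 FPKM for epicardial and mesothelial markers (4.52 to 7.20 in Control week 19), 752 and 746 FPKM for fibroblast markers (255 to 365) and 8060 and 14386 FPKM for atrial markers (172 to 462). Within the atrial list Nppa is listed at 0 in both libraries, against 81.1 to 345 FPKM in control. The sums for pericytes and smooth muscle (2091 and 1130 FPKM), glia and neural crest (7.85 and 8.21 FPKM) and mast cells (14.6 and 13.7 FPKM) overlapped control, and the part of these lists in the results was not tested. Against Control week 19, 4 members passed the test, where 50.7% of all genes did: Ednra at -1.44 on the log2 scale (limma adjusted p = 0.000785), Edn3 at -1.13 (0.0341), Ece1 at 0.70 (0.0226) and Ece2 at 0.74 (0.0135). Ednrb differed by 0.00 and Edn1 by -0.12. With only the groups compared in the fit, Edn3 (adjusted p = 0.110) and Ece1 (0.0556) did not pass. Edn3 also did not pass after quantile normalization (-0.67, limma adjusted p = 0.147) or with no filter on low values (-1.13, adjusted p = 0.0620).

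Without HF week 3 library 1, 3 members passed against Control week 19, where 30.1% of all genes did, and all of them were higher. Edn1 differed by 1.00 on the log2 scale (limma adjusted p = 0.00281), Ednrb by 0.99 (0.00878) and Ece1 by 1.15 (0.00567). Ednra at -0.51 (0.105), Edn3 at -0.35 and Ece2 at 0.44 did not pass. Ece1 was the member called higher both with and without that library. The remaining library is assumed to vary like those of the other groups. A difference between HF week 3 and HF week 5 was not tested.

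In the 4 recovery groups of weeks 7 to 13, Ednrb was at 4.57 and 4.46 FPKM in week 7, 7.45 and 7.36 in week 9, 6.15, 6.07 and 9.19 in week 11, and 7.47 and 6.47 in week 13. All of them but 1 library of week 11 were below each HF week 5 library, where the groups did not overlap for 50.4%, 48.1%, 33.8% and 50.6% of all genes in weeks 7, 9, 11 and 13. By the group means, HF week 5 had the highest Ednrb, followed by Recovery weeks 9, 11 and 13 (7.40, 7.14 and 6.97 FPKM), HF week 3 (6.37), Recovery week 19, Control week 19 and Recovery week 7 (4.52). Neighbours in this order other than HF week 5 and Recovery week 9 differed by less than the larger SD of the pair, with the exception of Control week 19 and Recovery week 7. Against HF week 5, the difference in week 7 was -1.32 on the log2 scale (SE 0.361, limma adjusted p = 0.0205), the 1 call among the members there, where 14.8% of all genes passed. It was -1.16 (adjusted p = 0.0836) without HF week 5 library 1 and -1.20 (0.0572) without library 3, and the adjusted p of the -1.32 was 0.0658 with only the groups compared in the fit. In weeks 9, 11 and 13 no member passed by limma, with 6.57%, 9.77% and 10.4% of all genes passing. At an unadjusted p under 0.05 the calls over the 4 weeks numbered 8, where 29.8%, 23.3%, 25.3% and 26.2% of all genes had such a p.

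Without both HF week 3 libraries, the Ednrb differences from HF week 5 passed the test in weeks 7, 9, 11 and 13, at -1.32, -0.66, -0.73 and -0.75 (limma adjusted p = 0.000726, 0.0496, 0.0152 and 0.0239). Ece1 passed in weeks 7, 11 and 13, at -0.70, -0.62 and -0.76 (0.0379, 0.0491 and 0.0321), and Edn1 in week 13 at -0.82 (0.00680). In that fit 24.2%, 14.0%, 18.1% and 18.9% of all genes passed in the respective weeks. Ece1 was at 16.2 and 21.0 FPKM in week 7, 21.1 and 19.4 in week 9, 21.7, 18.2 and 18.9 in week 11, and 17.9 and 17.5 in week 13. All of these were below the lowest HF week 5 library, 22.1 FPKM, a separation that 33.8% to 50.6% of all genes had in either direction. They overlapped the control range of 14.7 to 19.8 FPKM in each of the weeks.

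Against Control week 19 no member was called by limma in weeks 7, 9, 11 or 13, where 0.0470%, 0.0549%, 0.149% and 0.0784% of all genes passed, and 1 had an unadjusted p under 0.05 (Edn3 in week 7, -0.91 on the log2 scale), where 3.61%, 3.60%, 8.45% and 10.4% of all genes did. Although no call was made, Ednrb lay above every control library in weeks 9, 11 and 13, by 1.43, 1.36 and 1.35-fold on the log2(FPKM + 0.5) scale, and Ednra lay below every control library in weeks 7 and 9. Groups did not overlap for 15.6%, 15.2%, 9.96% and 26.8% of all genes in weeks 7, 9, 11 and 13. Edn1 was at 3.13, 2.50 and 2.60 FPKM in week 11, above every control library, and at 0.787 and 0.962 FPKM in week 13, below every control library. It was at 1.68 and 1.26 FPKM in week 7 and at 1.21 and 1.38 FPKM in week 9, the latter pair also below every control library. The differences of Edn1 from control were 0.61 in week 11 (limma adjusted p = 0.608) and -0.63 in week 13 (adjusted p = 0.537), and 0.0408 and 0.0467 with only the groups compared in the fit.

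Ednra, Edn3 and Ece2 had no call against control at these weeks. Ednra was at 5.80 and 5.61 FPKM in week 7, 5.55 and 5.52 in week 9, 9.52, 9.31 and 6.65 in week 11, and 6.17 and 4.60 in week 13. Edn3 was at 1.31 and 0.391 FPKM in week 7, 2.29 and 1.84 in week 9, 1.44, 2.98 and 3.42 in week 11, and 1.09 and 1.21 in week 13. Ece2 ranged from 6.81 to 10.7 FPKM over these libraries. Both Ednra and Edn3 had their highest recovery means in week 11, and neither difference from control passed the test.

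Ednrb and Ece1 are both transcripts of endothelial cells, and in bulk RNA more cells of a type and more RNA per cell cannot be told apart. The summed level of 14 endothelial markers was 461 to 574 FPKM in Control week 19 and 642 to 989 FPKM in HF week 5. It was 469 to 523 FPKM in Recovery week 19 and 1041 to 1044 FPKM in HF week 3. Of the 14, 7 were called higher in HF week 5 and none lower, 5 higher without HF week 5 library 1, and none of the 14 was at 0 in a whole group. As a description, chosen after the values were seen, Ednrb came to 0.888% to 1.17% of that sum in Control week 19, and to 1.52%, 1.25% and 1.72% in HF week 5. The share was 1.06% and 0.936% in Recovery week 7, 1.68% and 1.47% in week 9, 1.18%, 1.32% and 1.97% in week 11, 1.59% and 1.48% in week 13 and 0.870% to 1.32% in week 19. The shares of Recovery weeks 9 to 13 thus overlapped those of HF week 5 and were above all of control. In week 11 library 1 the share (1.178%) was only just above the highest of control (1.175%). In HF week 3 the share came to 0.219% and 1.00%. Ece1 came to 2.57% to 4.03% in control and to 5.14%, 3.44% and 2.96% in HF week 5. It came to 3.74% to 4.77% in Recovery weeks 7 to 13 and to 3.53% to 4.71% in Recovery week 19, so HF week 5 libraries 2 and 3 were below all of these. The part of the endothelial markers in the Ednrb and Ece1 results was not tested.

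Atrial and epicardial markers moved in the same comparison. The summed level of 8 atrial markers was 172 to 462 FPKM in Control week 19 and 2324 to 82353 in HF week 5, with 5 of the 7 tested called higher. That of 7 epicardial and mesothelial markers was 4.52 to 7.20 FPKM in Control week 19 and 14.5 to 90.6 in HF week 5, with 4 of 6 tested called higher. Over all genes, 11.6% were called higher. With HF week 5 library 1 left out, 4 atrial and 4 epicardial markers were called higher, where 10.7% of all genes were called in either direction. No marker of either list was at 0 in all libraries of these groups. HF week 5 library 1 was highest in both sums and for Ednrb and Ece1. In HF week 5 library 3, the atrial Myl7 was at 6.16 FPKM and Sln, an atrial regulator of the calcium pump, at 1.28 FPKM, while Ednrb was at 14.3 FPKM and Ece1 at 24.5 FPKM, both above every control library. In the same library Nppa, an atrial natriuretic peptide gene that stressed ventricle also expresses, was at 2214 FPKM against 81.1 to 345 FPKM in Control week 19, and the mesothelial Msln was at 2.28 FPKM against at most 0.328 FPKM. The part of atrial and epicardial markers in the Ednrb and Ece1 results was not tested.

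**Figure D4:**
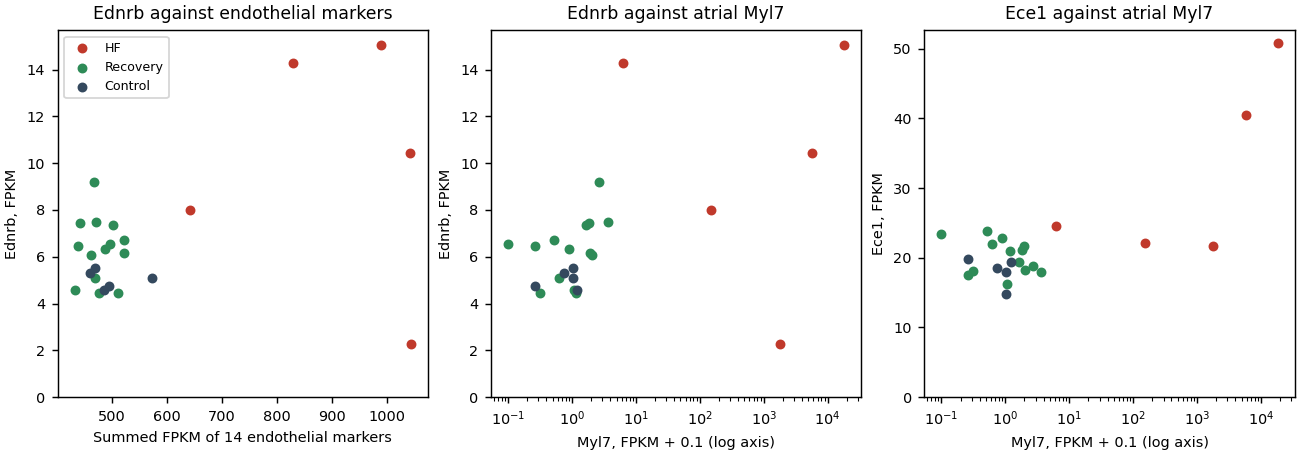
FPKM of Ednrb or Ece1 (vertical axes) against the summed FPKM of 14 endothelial markers, and against Myl7 FPKM + 0.1 on a log axis, with each library a point coloured as HF, recovery or control. Of the HF week 5 libraries, the one with Myl7 at 18388 FPKM has the highest Ednrb and Ece1, and all 3 lie above control in Myl7 and Ednrb.

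Fibroblast markers, 10 genes with 255 to 365 FPKM in Control week 19 and 363 to 713 in HF week 5, had 6 called higher and none lower in HF week 5, and 1 higher (Postn) without library 1. Of 12 pericyte and smooth muscle markers, cells that carry ETA, 5 were called higher and 1 lower (3 and none without library 1), and their sum overlapped between control (899 to 1246 FPKM) and HF week 5 (943 to 1452 FPKM). Of 10 cardiomyocyte markers, 1 was called lower, and none was called without library 1. Their sum was 22475 FPKM in HF week 5 library 1 and 41371 and 36865 FPKM in the others, against 36251 to 43699 FPKM in control. None of the 5 glial and neural crest markers tested was called, nor of the 8 tested of macrophages and leukocytes. Of the 5 mast cell markers tested, 1 was called higher, and none was called without library 1. Beside these lists, 11.6% of all genes were called higher and 12.4% lower, and 10.7% were called in either direction without library 1.

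Around the members, the shares of genes called in the lists that make, carry or damp the endothelin signal lay on both sides of the 24.0% called over all genes in HF week 5 against Control week 19, and the lists themselves were not tested. Their median log2 differences were between -0.34 and 0.43 beside 0.04 over all genes tested. In Recovery week 19 against HF week 5, 24.2% of all genes were called. Without HF week 5 library 1 the shares over all genes were 10.7% against control and 12.2% in that recovery comparison. Among 8 genes of endothelin processing and breakdown that were tested, Ece1 rose, while Furin, the protease that cuts the endothelin precursor, fell by 0.65 on the log2 scale (limma adjusted p = 0.0125) and Mme, the endothelin-degrading neprilysin, fell by 0.60 (0.0354). The other 5 did not pass. In Recovery week 19 against HF week 5, Furin was higher by 0.71 (adjusted p = 0.00732) and Mme by 0.72 (0.0136). Without HF week 5 library 1, Furin was the member of this list still called in each comparison.

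The list of receptor coupling holds G proteins of the Gq and the G12/13 class, phospholipase C, IP3 receptors and protein kinase C. Of its 13 tested genes, 1 was called higher and 2 lower in HF week 5, close to the 24.0% of all genes, with a median of 0.03 on the log2 scale. Gna12, the alpha subunit of G12, was at a mean of 5.23 FPKM in HF week 5 and 29.2 FPKM in Control week 19, a log2 difference of -2.32 (limma adjusted p = 0.00211), and its difference of Recovery week 19 from HF week 5 was 2.52. Prkce, protein kinase C epsilon, differed by -0.62 (0.00190) and then by 0.61, and Prkcd, protein kinase C delta, by 0.52 (0.0380). Gna12 and Prkce remained called without HF week 5 library 1.

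Among the 10 genes of receptor desensitization, 4 were called higher and none lower in HF week 5, beside 11.6% of all genes called higher, with a median of 0.18 on the log2 scale. They were Rgs3, which speeds the switching off of G proteins, at 0.96 (limma adjusted p = 0.00266), the arrestins Arrb1 at 0.82 (0.00404) and Arrb2 at 0.62 (0.00800), and the receptor kinase Adrbk2 at 0.66 (0.0451). In Recovery week 19 against HF week 5, where 24.2% of all genes passed, Rgs3 at -0.94, Arrb1 at -0.56 and Arrb2 at -0.47 were called lower. Rgs5, a pericyte regulator of G proteins, was called higher at 1.10. Without HF week 5 library 1, Arrb1, Rgs3 and Rgs4 were called higher and Rgs2 lower against control, while Arrb2 and Adrbk2 were not called. In the recovery comparison Rgs3 was then called lower and Rgs2 higher, and Arrb1, Arrb2 and Rgs5 lost their calls.

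Of 13 regulators of Edn1 transcription, Gata4, a cardiac factor that binds the Edn1 promoter, was called lower at -0.65 (limma adjusted p = 0.0108) and Foxo1 higher at 0.56 (0.0129) in HF week 5, and 11 did not pass, a share called below the 24.0% of all genes. The list's median was -0.34, and no member of it was called without HF week 5 library 1. In Recovery week 19 against HF week 5, Gata4 was called higher at 0.67 and Hif1a, the hypoxia-inducible factor, lower at -0.38. Edn1 itself passed in neither comparison.

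Other vasoactive receptors had more calls, 6 of 10 tested, beside the 24.0% of all genes. Npr3, the clearance receptor of natriuretic peptides, was higher in HF week 5 by 2.03 on the log2 scale (limma adjusted p = 0.00114) and Npr1, their guanylate cyclase receptor, by 0.62 (0.00333). The angiotensin receptor Agtr1a differed by -1.08 (0.00265), and the adrenergic receptors Adra1a, Adra1b and Adra1d by -1.14, -1.23 and -0.94. All 6 were called in the opposite direction in Recovery week 19 against HF week 5, where 24.2% of all genes passed. That comparison shares the HF week 5 libraries. The differences were -1.49 for Npr3, -0.63 for Npr1, 1.03 for Agtr1a and 0.91 to 1.11 for the adrenergic receptors. Adra1b, Agtr1a, Npr1 and Npr3 were still called against control without HF week 5 library 1, and Adra1b, Agtr1a and Npr1 in the recovery comparison. In Recovery week 19 against Control week 19 no gene of these pathway lists was called.

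**Figure D5:**
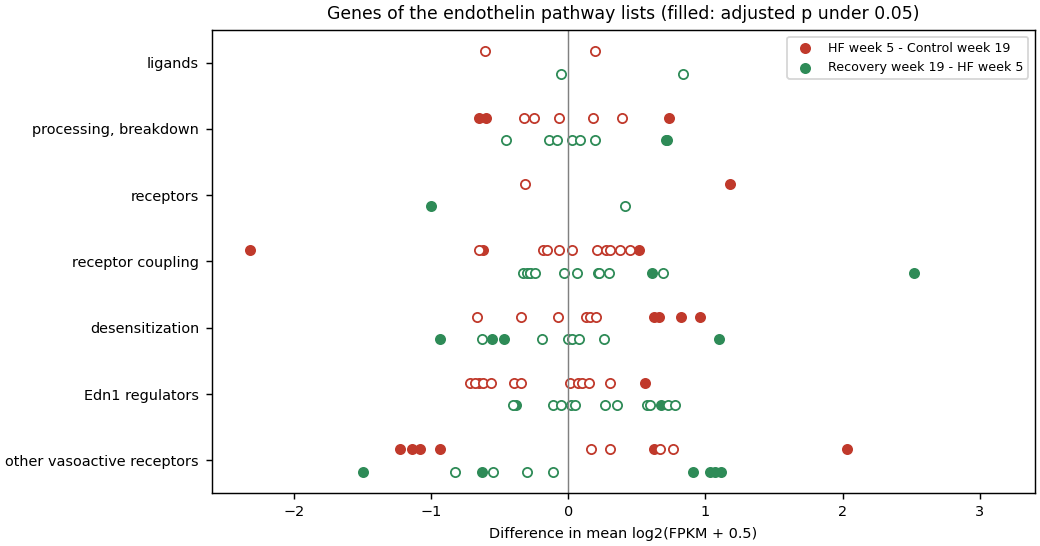
Differences in mean log2(FPKM + 0.5) (horizontal axis) of the genes in 7 lists around the endothelin system (rows), in HF week 5 against Control week 19 (upper points of a row) and Recovery week 19 against HF week 5 (lower points), filled where the adjusted p is under 0.05. Gna12 (-2.32 and 2.52) and Npr3 (2.03 and -1.49) lie farthest from 0.

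Likeness was taken as a description over 24 libraries, which lie on both sides of the split by week, and was not tested. The gene whose log2 values followed each member most closely was Cd97 for Edn1 (Pearson r 0.879), Clic5 for Edn3 (0.794), Ints4 for Ednra (0.913), Fam164a for Ednrb (0.879), Tmem108 for Ece1 (0.900) and Fdx1l for Ece2 (0.895), out of 12663 genes compared. Without the HF week 3 libraries these were 0.772, 0.725, 0.662, 0.841, 0.883 and 0.848, so the likeness of Ints4 to Ednra rested most on those libraries. Among the members themselves, Edn3 and Ednra had the highest r over all libraries, 0.683, and Ednrb and Ece1 the highest without HF week 3, 0.677. Ednra and Ednrb had an r of 0.249 with and -0.35 without HF week 3.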

How the data were processed

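Poly(A) RNA of mouse hearts was sequenced in paired ends. The authors aligned the reads with TopHat to MGSCv37 (mm9 in the submitters' processing notes) and deposited FPKM from Cuffdiff, 1 column per library, for 29955 gene symbols. The annotation, strand setting and scaling between libraries are not given in the sources used here. The absolute depth is unknown, so the precision is the spread between libraries. The week in a column's name gave its group, with no link to a labelled animal. Under the name of the week 5 controls the table holds 5 columns for 4 labelled samples. These 5 columns were not used, and Control week 19 was the reference. Recovery week 9 had 2 columns where 3 samples are labelled.

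Of the genes, 12759 had a mean of 0.5 FPKM or more in the 24 libraries, all 6 members among them, and were tested as log2(FPKM + 0.5) with limma 3.58.1 in R 4.3.3, with 1 mean per group, 16 residual degrees of freedom and eBayes with a trend. Tests were two-sided, and a gene was called at a Benjamini-Hochberg adjusted p under 0.05 over all genes tested. The receptor ratio was tested by exact permutation. Plots were drawn with matplotlib 3.10.9 and pandas 2.3.3 in Python 3.11.15. On simulated data for HF week 5 against Control week 19 with 12759 genes, 75% of the 100 genes with a log2 change of 1 and 92% of the 100 with a change of 2 were recovered, and 0 were called in the wrong direction. The simulated spread of a gene was the same in all groups, and few genes were changed. In the data, HF week 5 libraries varied more than control for Ednrb (SD 3.86 against 0.390 FPKM) and Ece1 (15.9 against 2.00 FPKM). The rates therefore do not give the power of the real comparison. All members were named whatever their values, as were the called genes of 7 pathway lists; a further list is not reported here. For likeness, the genes with the highest correlation with each member were named. The members, the 7 pathway lists and the 9 lists of cell type markers were chosen with earlier results of these data known. The alternatives were other pseudocounts (0.1 and 1), filters, scalings, robust eBayes, the unadjusted p, fewer groups and leaving out libraries. Promoter windows came from RefSeq.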

Additional observations from a re-analysis of the deposited data

How the results depend on the processing

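No paired analysis was possible because the library numbers are not linked to labelled animals. All 6 members passed the filter, so the test planned for members under it was not run. Against the member calls reported (2 in HF week 5 and 4 in HF week 3 against Control week 19, 1 in Recovery week 19 and 1 in Recovery weeks 7 to 13 against HF week 5, 0 in the others), the unadjusted p gave 3 in Recovery week 19 against HF week 5 (36.8% of all genes), 8 in Recovery weeks 7 to 13 against HF week 5 and 1 against control. A fit of only the groups compared gave 1 in HF week 5, 2 in HF week 3, 0 in weeks 7 to 13 against HF week 5 and 2 against control, where 25%, 32.6%, 0.0698% to 2.98% and 0.0639% to 3.19% of all genes passed. Quantile normalization gave 2 in Recovery week 19 against HF week 5 (27.5%). Chosen after seeing the data, fits without both HF week 3 libraries gave 2 there (34.1%) and 8 in weeks 7 to 13 against HF week 5. Leaving out 1 library at a time gave, against control, 0 to 2 calls in HF week 5 (10.7% to 34.3% of all genes) and 3 to 4 in HF week 3 (30.1% to 52.2%) and, against HF week 5, 0 to 2 calls in Recovery week 19 (12.2% to 34.4%) and 0 to 7 in weeks 7 to 13 (2.09% to 24.4%). The comparisons of recovery with control stayed at 0. Without HF week 5 library 1 no member was called in comparisons with HF week 5, where 10.7% of all genes passed against control, 12.2% in Recovery week 19 and 2.09% to 6.52% in weeks 7 to 13, and without library 3 none was in the recovery comparisons. By library left out, the receptor ratio differences ranged from -1.80 to -1.23 between HF week 5 and control, from 1.15 to 1.71 between Recovery week 19 and HF week 5, and from -0.22 to 0.012 between Recovery week 19 and control, the last without Control week 19 library 4. Of the other member values under alternatives, 1643 kept their direction and call, 33 gained and 17 lost a call, and 29 changed sign, nearly all of them close to 0. With median centring the log2 differences became 0.0039 for Edn1 in Recovery week 19 and 0.052 for Ece2 in Recovery week 7, both against HF week 5, and -0.063 for Ednrb in HF week 3 and 0.020 for Ece1 in Recovery week 13, both against control. Quantile normalization gave 0.063 for Edn1 in Recovery week 19 and 0.037 for Ece2 in Recovery week 7 against HF week 5, and 0.16 for Edn1 in HF week 3. A pseudocount of 0.1 gave -0.030 for Ednrb in HF week 3. Leaving out 1 library at a time gave, in HF week 3 against control, -0.16 to 1.00 for Edn1 and -0.032 to 0.99 for Ednrb, both highest without HF week 3 library 1, and the changed sign of Edn1 was the only one past the test. Against HF week 5 it gave -0.17 to 0.11 for Edn1 in Recovery week 19, -0.62 to 0.0012 for Edn3, -0.20 to 0.062 for Ednra and -0.11 to 0.056 for Ece2 in week 7, an Ednra of 0.022 and -0.036 to 0.13 for Ece2 in week 9, and -0.24 to 0.38 for Edn3 and -0.054 to 0.12 for Ece2 in week 13. Against control it gave -0.13 to 0.13 for Ece2 in Recovery week 19, -0.036 to 0.067 for Ece1 in week 7, -0.035 to 0.29 for Edn3 in week 9 and -0.093 to 0.0091 for Ece1 in week 13. The cause was not tested for any of these.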
